A study of Mus musculus with 12 samples.

Results

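The 36 genes described here are interferon-stimulated genes, which cells switch on in response to type I interferon, and their levels were followed across RNA-seq libraries of mouse CD8 T cells. They were chosen by name, as well-known members of this response, and not by how they behaved in these samples, although earlier results of these data were known when the list was drawn up. All 36 were present among the 23937 genes of the deposited table, and all 36 were among the 22352 genes that reached 1 CPM (counts per 1000000 reads of the scaled library size) in at least 3 libraries and were tested.

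The libraries came from cells labelled as CD8 T cells and fell into 4 groups of 3: naive mouse blood, naive mouse brain, brain 3 days after stroke and brain 30 days after stroke. Cells of every group were flow sorted straight into lysis buffer, and libraries were made with the SMART-Seq v4 kit, which amplifies RNA from very few cells. The sources used here do not give the strain, sex and age of the mice, the way the stroke was induced, the number of animals per library or the sorting gate, and the protocol text names spleen as the starting tissue where the sample labels give brain or blood. Nothing says that replicates came from separate animals. Each p-value therefore sets a difference against the spread of these samples only, and that spread may be technical. Libraries held 1104490 to 21014171 reads, and a count of 0 allows a level of up to 0.298 to 1.65 CPM (3 reads), depending on the library. These limits cover counting error only, because the kit adds no molecular identifiers.

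Type I interferons, the products of Ifnb1 and the Ifna genes, bind a receptor made of Ifnar1 and Ifnar2, whose kinases phosphorylate Stat2. With Irf9, Stat2 takes part in a complex that binds the interferon-stimulated response element (ISRE) in the promoters of its target genes. Interferon gamma, which activated CD8 T cells and natural killer cells make, acts through a separate promoter element, the gamma-activated site (GAS), and many of the same genes answer to both. The products of the 36 genes sense viral RNA, block its translation or degrade it, trap or starve virus particles, attach or remove the ubiquitin-like protein ISG15, or form GTPase coats on the vacuoles of intracellular parasites.

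Certain libraries stood apart before any gene was considered. The summed level of 1490 olfactory, vomeronasal and taste receptor genes, which lymphocytes are not known to use, separated 5 libraries of low background (the 3 naive brain libraries and replicate 1 of each stroke group) from 7 of high background (the 3 blood libraries and replicates 2 and 3 of each stroke group), at 1335 CPM without the authors' scaling. Background therefore cannot be told apart from tissue between naive brain and blood, and it cuts across both stroke groups. Orders between libraries given in CPM are those of the authors' scaled values and can differ without that scaling. T cell transcripts were present in every library, with the 12 T cell markers at 0.0740 to 0.238% of reads in day 3 brain, 0.343 to 0.497% in blood, 0.630 to 0.850% in naive brain and 0.486 to 1.26% in day 30 brain. All 12 microglial markers were also detected in every group, at 0.0184 to 0.0353% of reads in blood, 0.998 to 2.02% in naive brain, 0.349 to 1.41% in day 3 brain and 0.185 to 0.552% in day 30 brain. The T cell share in day 3 brain was thus below that of every blood library, and the part of these cells in the members' levels was not tested. In bulk samples, fewer cells of a type and less RNA per cell cannot be told apart.

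The typical member ranked above the middle of the tested genes in every library, with the members' median at percentile 62.0 to 89.4, and their joint level differed between tissues and between replicates of the stroke groups. Averaged over the 36 genes, log2(CPM + 1) was 3.63, 4.19 and 4.33 in the 3 blood libraries, a group mean of 4.05 ± 0.37 (SD, n = 3). It was 5.95, 5.16 and 5.36 in naive brain, a group mean of 5.49 ± 0.41 (SD, n = 3). The naive brain libraries all lay above the blood libraries on this scale. Without the authors' scaling the averages were 3.92, 4.85 and 4.70 in blood and 5.54, 4.58 and 4.48 in naive brain, and the groups overlapped. After stroke the same average was 6.69, 4.27 and 4.72 at day 3 (5.23 ± 1.29, SD, n = 3) and 6.82, 5.43 and 4.88 at day 30 (5.71 ± 1.0, SD, n = 3). Replicate 1 of each stroke group was higher than any naive brain library, whereas day 3 replicates 2 and 3 were lower than all of them and day 3 replicate 2 lay within the blood range.

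**Figure D1:**
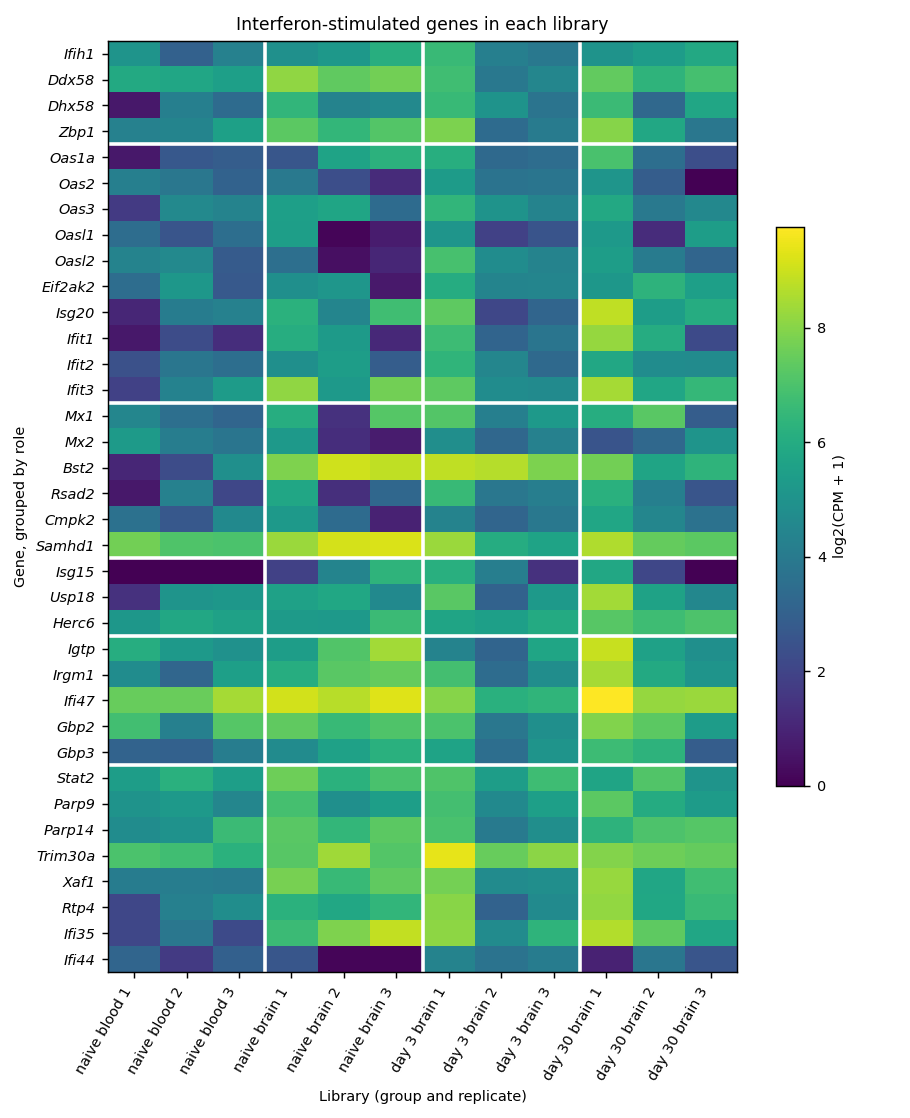
Levels of the 36 interferon-stimulated genes as log2(CPM + 1) (colour scale), with genes grouped by role in rows and the 12 libraries in columns. Low levels are dark and high levels bright. The columns of day 3 replicate 1 and day 30 replicate 1 are the strongest in the RNA-binding effectors, and the blood columns are dark throughout most roles.

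The share of all reads that fell on the members needs no scaling between libraries, and by this measure all 9 brain libraries lay above all 3 blood libraries. It was 0.145, 0.179 and 0.186% in blood and 0.285, 0.222 and 0.228% in naive brain. It was 0.317, 0.238 and 0.218% in day 3 brain and 0.446, 0.319 and 0.235% in day 30 brain (95% Wilson intervals at most 0.0178 percentage points wide). The separation did not hold when 5 abundant members were left out. Without Ifi47, Samhd1, Bst2, Trim30a and Ifi35, a set chosen after the values were seen, the shares were 0.0801 to 0.109% in blood and 0.0929 to 0.185% in naive brain. For the remaining 31 genes they were 0.0978 to 0.196% in day 3 brain and 0.147 to 0.312% in day 30 brain, so that blood overlapped naive brain and day 3 brain but not day 30 brain.

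**Figure D2:**
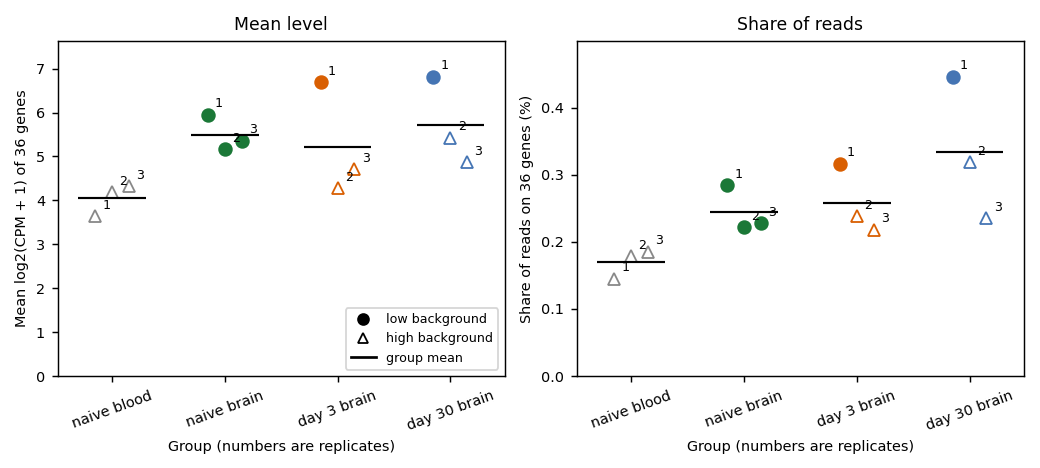
Left, the mean log2(CPM + 1) over the 36 genes, and right, the percentage of reads on them, for each library, with replicate numbers beside the points and groups on the horizontal axis. By share of reads every brain library is above the blood libraries, while the mean level of day 3 replicate 2 (4.27) is within the blood range of 3.63 to 4.33.

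Day 30 replicate 1 held the highest value of the 12 libraries for 17 of the 36 genes (47.2%, against 6.66% of all tested genes), and day 3 replicate 1 for 8 (22.2%, against 6.83%). Naive brain libraries held the highest value for 8 further genes, day 30 replicate 2 for 2 and blood replicate 1 for 1. The members also varied within naive brain, where 12 of the 36 differed more than 10-fold between the lowest and the highest library, with a floor of 3 reads. Ifit1, whose product binds viral RNA that lacks the host cap modification, is an example at 67.4, 39.1 and 1.19 CPM.

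Between naive brain and naive blood, 5 of the 36 members were called higher and none lower by limma at an adjusted p of 0.05 (13.9% called higher, against a background of 6.61% of all tested genes called higher, 7.59% called in either direction and 0.975% lower). The median log2 difference of the members was 1.41, against -0.37 over all tested genes, and 29 of 36 were above 0. In 15 members the 3 naive brain libraries all lay above the 3 blood libraries (41.7%, against 15.6% of tested genes), and none showed the opposite order (background 15.2%). With unscaled CPM this order was kept in Bst2, Ifi35, Isg15, Xaf1 and Ddx58 and lost in the others of the 15. The median was then 0.29 (all tested genes -1.05), with 25 of 36 above 0, and only Bst2 and Ifi35 were called. The 5 called genes were Bst2, Ifi35, Isg15, Ifit3 and Xaf1.

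The promoters of these 5 genes are shown because they passed the test. They also differ in whether a match was found to the core of the ISRE, the element through which type I interferon acts. Each is the 250 bases before the RefSeq transcription start (GRCm38.p6), read 5′ to 3′ on the gene's own strand. Capitals mark matches on either strand to the ISRE core, which was searched as GAAA, any 2 bases and a second GAAA.
Bst2, chr8:71537473-71537722, minus strand: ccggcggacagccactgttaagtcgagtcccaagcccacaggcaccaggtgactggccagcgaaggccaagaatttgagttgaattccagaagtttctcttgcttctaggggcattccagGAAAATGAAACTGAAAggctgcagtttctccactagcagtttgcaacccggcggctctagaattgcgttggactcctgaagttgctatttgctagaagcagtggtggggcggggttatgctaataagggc
Isg15, chr4:156200819-156201068, minus strand: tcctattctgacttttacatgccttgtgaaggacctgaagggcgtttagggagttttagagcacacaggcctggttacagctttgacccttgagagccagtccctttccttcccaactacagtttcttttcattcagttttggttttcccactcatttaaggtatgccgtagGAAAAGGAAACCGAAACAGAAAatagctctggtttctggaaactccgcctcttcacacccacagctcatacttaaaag
Ifit3, chr19:34583279-34583528, plus strand: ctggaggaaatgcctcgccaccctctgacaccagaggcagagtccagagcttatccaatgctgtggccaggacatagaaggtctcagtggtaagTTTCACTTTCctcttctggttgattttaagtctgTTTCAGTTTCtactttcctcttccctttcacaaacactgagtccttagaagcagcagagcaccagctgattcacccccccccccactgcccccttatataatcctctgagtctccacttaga
Ifi35, chr11:101448162-101448411, plus strand: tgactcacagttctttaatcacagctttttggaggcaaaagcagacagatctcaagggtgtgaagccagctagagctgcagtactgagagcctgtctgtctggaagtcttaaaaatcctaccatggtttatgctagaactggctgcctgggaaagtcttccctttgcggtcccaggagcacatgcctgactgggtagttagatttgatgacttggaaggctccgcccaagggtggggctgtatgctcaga
Xaf1, chr11:72301379-72301628, plus strand: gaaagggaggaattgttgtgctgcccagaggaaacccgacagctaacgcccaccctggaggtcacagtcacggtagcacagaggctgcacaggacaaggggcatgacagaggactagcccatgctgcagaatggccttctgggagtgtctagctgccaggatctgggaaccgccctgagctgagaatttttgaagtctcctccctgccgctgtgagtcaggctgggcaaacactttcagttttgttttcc

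Bst2 held a pair of overlapping ISRE cores from -130 to -115, Isg15 a run of 3 overlapping cores from -78 to -57, and Ifit3 a pair on the opposite strand at -156 and -122. Neither Ifi35 nor Xaf1 held a match in the window that runs from 250 bases before to 50 bases after the start. RefSeq gave such windows for 27 of the 36 members, and 16 of these 27 genes (59.3%) held an ISRE core in at least 1 window. Counted by window, the share was 53.1% (17 of 32), against 3.44% of all 32851 windows of the same length (1131). The GAS letters TTCNNNGAA, which read the same on both strands, occurred in 8 of the 27 genes (29.6%) and 25% of member windows, against 8.3% of all windows. A GAS match from -136 to -128 overlapped the ISRE of Bst2. Ifi35 held a GAS match at +8 to +16. These matches describe letters in a window and not bound sites. Only exact letters were searched, so a window without a match need not lack the element.

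Bst2 encodes tetherin, a membrane protein that holds budding virus particles on the cell surface, and lies on the minus strand of chr8:71534255-71537456 (GRCm38). Its level was 1.08, 3.84 and 28.2 CPM in naive blood, 231, 529 and 448 in naive brain, 456, 401 and 227 in day 3 brain and 201, 50.5 and 80.4 in day 30 brain. Every brain library was above every blood library, and within blood replicate 3 was far above replicates 1 and 2. Naive brain exceeded blood by 5.84 ± 0.80 (SE) on the log2(CPM + 1) scale (limma adjusted p = 2.76e-07). Day 3 brain exceeded blood by 5.71 ± 0.80 (SE) (limma adjusted p = 9.76e-07). The day 30 difference from blood was 3.83 ± 0.80 (SE) (limma adjusted p = 0.00436). All 3 day 30 libraries lay below all naive brain and all day 3 libraries, but the differences of -2.01 ± 0.80 (SE) and -1.88 ± 0.80 (SE) did not pass (limma adjusted p = 0.425 and 0.693). Bst2 also marks plasmacytoid dendritic cells. The 10 markers listed for those cells summed to 132 to 302 CPM in blood, 543 to 1295 in naive brain, 1895 to 8253 in day 3 brain and 225 to 922 in day 30 brain (unscaled CPM), and their part in the Bst2 result was not tested.

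Ifi35, an interferon-induced leucine zipper protein, lies on the plus strand of chr11:101448407-101458698 (GRCm38), and 290 of its exon bases are shared with the predicted gene Gm11626, from which unstranded counting could not separate it. It was at 3.24, 13.7 and 3.52 CPM in naive blood, 99.96, 229.9 and 463 in naive brain, 270.4, 25.02 and 80.3 in day 3 brain and 391, 161 and 54.2 in day 30 brain. As with Bst2, no brain library fell to the level of a blood library, with day 3 replicate 2 the closest to it. The difference from blood was 5.08 ± 0.86 (SE) in naive brain, 3.66 ± 0.86 (SE) at day 3 and 4.53 ± 0.86 (SE) at day 30 on the log2(CPM + 1) scale. The limma adjusted p-values were 2.39e-05, 0.00866 and 0.00105. Ifi35 and Bst2 were the members called in all 3 comparisons with blood.

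Xaf1, an interferon-induced gene that promotes cell death, lies on the plus strand of chr11:72301629-72313733. It stood at 16.2, 16.5 and 15.5 CPM in naive blood, 217, 94.3 and 164 in naive brain, 212, 25.02 and 27.3 in day 3 brain and 302, 53.3 and 108 in day 30 brain. The blood libraries were nearly identical, and each brain library was higher, with day 3 replicates 2 and 3 closest to blood. Xaf1 passed in naive brain, at 3.15 ± 0.83 (SE) on the log2(CPM + 1) scale (limma adjusted p = 0.00975), and did not pass at day 3 (1.66 ± 0.83 SE, limma adjusted p = 0.601) or day 30 (2.84 ± 0.83 SE, limma adjusted p = 0.0948).

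Isg15, the ubiquitin-like modifier that gives the system its name, lies on the minus strand of chr4:156199424-156200818. It had 0 reads in all 3 blood libraries. Its level was 2.71, 20.4 and 80.5 CPM in naive brain, 69.7, 16.8 and 1.61 in day 3 brain and 55.96, 3.21 and 0 in day 30 brain. The brain groups were wide, from no read in day 30 replicate 3 to 80.5 CPM in naive brain replicate 3. Against the mean blood floor of 1.44 CPM, the mean was at least 24.0-fold higher in naive brain, at least 20.4-fold higher at day 3 and at least 13.7-fold higher at day 30. The naive brain difference passed (4.22 ± 1.26 SE on the log2(CPM + 1) scale, limma adjusted p = 0.0261), and those of the stroke groups did not. A fitted difference from a group at 0 depends on the pseudocount.

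Ifit3, which works with Ifit1 on viral RNA, lies on the plus strand of chr19:34583531-34588731 and had the highest mean level of the RNA-binding effectors. It was at 2.704, 19.2 and 39.4 CPM in naive blood, 278, 36.7 and 203 in naive brain, 159, 25.5 and 24.1 in day 3 brain and 343, 53.7 and 89.9 in day 30 brain. Naive brain replicate 2 was below blood replicate 3, so the groups overlapped, and the naive brain difference passed at 3.16 ± 0.90 (SE) on the log2(CPM + 1) scale (limma adjusted p = 0.0181). In both stroke groups replicate 1 stood well above replicates 2 and 3.

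**Figure D3:**
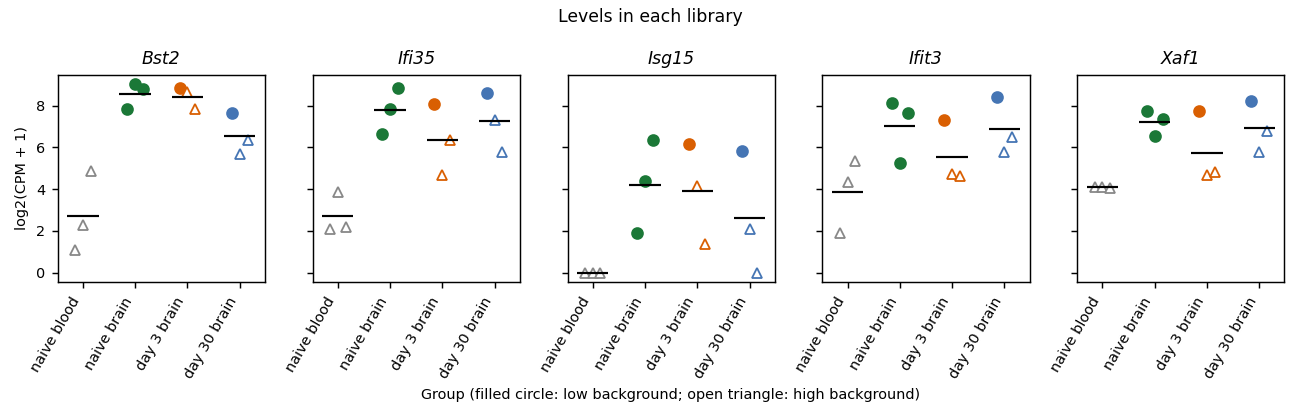
log2(CPM + 1) of the 5 members called in any comparison, 1 point per library, by group. Filled circles are low background and open triangles high background libraries, so that naive brain and blood differ in both tissue and background, and Bst2 and Ifi35 are higher in every brain library than in every blood library.

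The calls against blood depended on how the background was treated. A model with a low or high background term called none of the 36 higher in naive brain, 1 at day 3 (Bst2) and 2 at day 30 (Bst2 and Ifi35). The naive brain median turned to -0.49 (all tested genes 0.02). Only the stroke groups hold libraries of both kinds, so the term was set by the differences between replicates within them. Those replicates also differed in cell markers. The model therefore cannot show how naive brain and blood differ at equal background. In naive brain, Isg15 was not called when any of the 3 blood libraries or naive brain replicate 2 or 3 was left out, nor Ifit3 without blood replicate 1 or naive brain replicate 1 or 3. The naive brain count ran from 3 to 6 as single libraries were left out. Bst2 at day 30 was not called without blood replicate 1 or by edgeR, nor Ifi35 at day 3 without blood replicate 1 or day 3 replicate 1.

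At day 3, 2 of the 36 were called higher than blood (5.56%, against 1.1% of tested genes called higher), and at day 30 also 2 (5.56%, against 0.676%). They were Bst2 and Ifi35 at both times. The median member difference was 1.25 at day 3 (all tested genes 0.03) and 1.44 at day 30 (-0.05), with 28 and 33 of 36 above 0. The 3 day 3 libraries lay above all blood libraries for 8 members (22.2%, against 7.54% of tested genes) and the 3 day 30 libraries for 12 (33.3%, against 7.35%). Bst2, Trim30a, Xaf1 and Ifi35 were higher in all 9 brain libraries than in all 3 blood libraries, which is 11.1% of the members and 1.88% of tested genes. With unscaled CPM this held for 3 members (8.33%, against 1.41%), Trim30a being the one lost. These comparisons share the blood libraries. Among high background libraries alone, the mean of day 30 replicates 2 and 3 exceeded the blood mean in 32 of 36 members (88.9%, against 48.1% of tested genes). The mean member difference was 1.10. Both of these libraries lay above all blood libraries for 14 members (38.9%, against 10.8%) and below all for 1 (2.78%, against 10.8%). The mean of the corresponding day 3 libraries exceeded the blood mean in 23 (63.9%, against 60.2%), with a mean member difference of 0.45. Both day 3 libraries lay above all blood libraries for 8 members (22.2%, against 14.2%) and below all for 5 (13.9%, against 9.51%).

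No member was called in any comparison between the brain groups. Of the 36, limma called 0 between day 3 and naive brain (background 0.716% of tested genes), 0 between day 30 and naive brain (0.224%) and 0 between day 30 and day 3 (0.255%). At an unadjusted p under 0.05 the members higher and lower numbered 2 and 8 at day 3 (5.56 and 22.2%, against 5.14 and 7.7% of tested genes). They numbered 2 and 1 at day 30 (against 2.93 and 5.97%), and 4 and 1 for day 30 against day 3 (against 2.57 and 3.1%). edgeR also called 0 in each of these, and DESeq2 called 1, 0 and 0, the 1 being Oasl2. The median member difference was -0.24 at day 3 (all tested genes 0.50), 0.06 at day 30 (0.19) and 0.75 for day 30 against day 3 (-0.15). The sign of the day 3 median turned with the scaling, being 0.65 with unscaled CPM (all tested genes 1.13), 0.17 with DESeq2 size factors (0.78) and -0.27 with quantile normalization (0.02), and under each of these it stayed below that of all tested genes. A term for background placed it above them, at 1.08 for day 3 (0.13) and 1.35 for day 30 (-0.02), with 28 and 34 of 36 members above 0 and still 0 called. Naive brain held low background libraries only. These values therefore rest on the difference between low and high background replicates, pooled over both stroke groups.

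**Figure D4:**
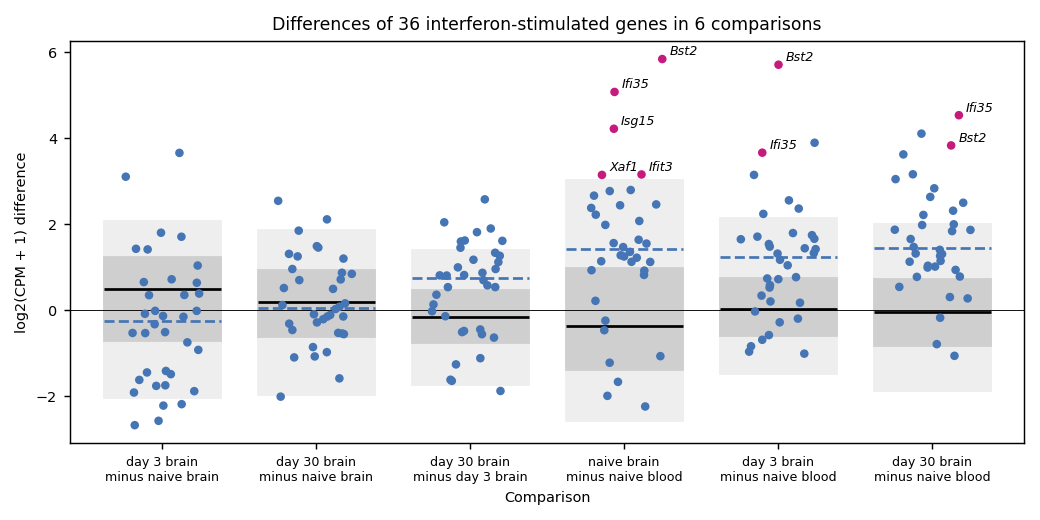
log2(CPM + 1) difference of each of the 36 members (points) in each of the 6 comparisons, with the members that passed the threshold marked. The stroke comparisons hold no passing member and reach from -2.67 to 3.66, and the passing genes all belong to the comparisons with blood.

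The members nearest the threshold at day 3 lay on both sides of naive brain. Oasl2, of the 2-5A synthetase family, had the smallest adjusted p, at 3.66 ± 1.06 (SE) above naive brain (limma adjusted p = 0.0925). It was at 10.8, 0.323 and 1.09 CPM in naive brain and 119, 25.5 and 19.8 CPM at day 3, so the groups did not overlap. Oasl2 passed when naive brain replicate 1 was left out and when CPM were left unscaled. In the other direction Ddx58, which encodes the RNA sensor RIG-I, was -2.67 ± 0.78 (SE) on the same scale (limma adjusted p = 0.0959). Without day 3 replicate 1, 3 members were called lower, namely Ddx58, Ifi47 and Samhd1.

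The sensors were led in level by Ddx58, at 60.02, 54.3 and 45.1 CPM in naive blood, 281, 167 and 202 in naive brain, 109, 14.1 and 21.4 in day 3 brain and 170.1, 79.4 and 117 in day 30 brain. Day 3 replicates 2 and 3 were below every blood library, and the highest 3 values were those of naive brain replicates 1 and 3 and day 30 replicate 1. Zbp1, a sensor of Z-form nucleic acid that can start necroptosis, was at 18.4, 20.3 and 45.8 CPM in naive blood, 156, 87.9 and 139 in naive brain, 224, 9.55 and 15.5 in day 3 brain and 250.3, 56.5 and 13.5 in day 30 brain, with both replicates 1 of the stroke groups above all naive brain libraries. Dhx58, the regulator of RIG-I also called LGP2, reached 95.4 CPM in day 3 replicate 1 and 100.1 CPM in day 30 replicate 1, against 84.9 CPM at most in naive brain. Ifih1, which encodes MDA5, was highest in day 3 replicate 1 at 96.05 CPM.

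In the 10 RNA-binding and RNA-degrading effectors, replicate 1 of each stroke group stood above the other 10 libraries. Their mean log2(CPM + 1) was 6.36 in day 3 replicate 1 and 6.51 in day 30 replicate 1. It was 3.18 to 5.13 in naive brain, 2.38 to 3.80 in blood, and 3.75 to 4.40 in the other 4 stroke libraries. Oas1a, Oas2, Oas3 and the related Oasl1 and Oasl2 belong here with Eif2ak2, the kinase PKR that halts translation, Isg20, an RNA exonuclease, and the Ifit genes. Ifit1 was at 0.541, 3.84 and 1.41 CPM in naive blood, 67.4, 39.1 and 1.19 in naive brain, 102, 7.73 and 12.9 in day 3 brain and 299, 65.2 and 3.61 in day 30 brain, with day 30 replicate 1 far above the rest and naive brain replicate 3 near the blood level. Isg20 was at 1.08, 15.9 and 18.7 CPM in naive blood, 74.8, 20.5 and 107 in naive brain, 159.8, 3.18 and 8.03 in day 3 brain and 456, 42.2 and 64.6 in day 30 brain, with the same library highest. Oas1a, which makes the 2-5A that activates RNase L, was at 0.541, 5.49 and 6.34 CPM in naive blood, 5.04, 49.1 and 76.1 in naive brain, 67.5, 9.098 and 10.2 in day 3 brain and 125, 10.6 and 4.06 in day 30 brain. Naive brain replicate 1 and day 30 replicate 3 fell in the blood range for Oas1a, and the 3 day 3 libraries lay above all blood libraries without passing the test.

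Samhd1, which removes the nucleotides that viruses need, led the virus particle and nucleotide effectors in level, at 202, 132 and 127 CPM in naive blood, 314, 556 and 596 in naive brain, 310.01, 65.1 and 49.8 in day 3 brain and 384, 176 and 156 in day 30 brain. It was lowest in day 3 replicates 2 and 3, below all blood libraries. The same group holds Mx1, Mx2 and Rsad2, whose products block virus particles or RNA synthesis, and Cmpk2, a mitochondrial nucleotide kinase. None of these 4 passed in any comparison, and their libraries scattered widely. Mx1 was at 21.1, 10.97 and 8.096 CPM in naive blood, 67.4, 1.62 and 143 in naive brain, 139.8, 17.3 and 38.02 in day 3 brain and 66.8, 151 and 6.32 in day 30 brain, so that naive brain and day 30 brain each reached from below to far above the blood range. Rsad2, which encodes viperin, was at 0.541, 18.7 and 3.17 CPM in naive blood, 53.9, 1.51 and 8.54 in naive brain, 95.4, 13.6 and 17.1 in day 3 brain and 72.04, 17.4 and 4.97 in day 30 brain, with the first replicate of each stroke group highest. Mx2 is annotated as a polymorphic pseudogene in the mouse reference. Across the whole set, 12 of the 36 members share exon bases with another annotated gene, and since no source used here gives the strand setting of the counting, reads of such pairs cannot be told apart.

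Around ISG15, Herc6, the ligase that attaches it in the mouse, was highest on average at 34.6, 55.95 and 47.2 CPM in naive blood, 38.7, 37.1 and 101 in naive brain, 51.4, 45.04 and 61.05 in day 3 brain and 149, 106 and 129.6 in day 30 brain. All day 30 libraries exceeded all other libraries for Herc6, and no test of day 30 passed (limma adjusted p = 0.95 against day 3, 0.649 against naive brain and 0.523 against blood). Usp18, the protease that removes ISG15 and damps the receptor, was at 1.62, 32.4 and 34.8 CPM in naive blood, 46.9, 55.1 and 23.7 in naive brain, 153, 7.28 and 36.95 in day 3 brain and 341, 47.8 and 22.1 in day 30 brain. Both replicates 1 of the stroke groups were above the rest, day 30 replicate 1 by the most.

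Among the interferon-inducible GTPases, Ifi47 was the most abundant member of the whole set, at 177, 184 and 347 CPM in naive blood, 546, 421 and 626 in naive brain, 250.1, 72.3 and 83.00 in day 3 brain and 863, 296 and 313 in day 30 brain. Day 3 replicates 2 and 3 lay below all blood libraries and day 30 replicate 1 above all others. The other 4 are Igtp and Irgm1, immunity-related GTPases, and Gbp2 and Gbp3, guanylate-binding proteins. Igtp, at 65.97, 37.8 and 29.2 CPM in naive blood, 42.2, 138 and 335 in naive brain, 19.7, 7.73 and 52.5 in day 3 brain and 487, 46.8 and 28.00 in day 30 brain, was below all naive brain libraries in day 3 replicates 1 and 2 and above them only in day 30 replicate 1. Irgm1 was at 25.96, 8.23 and 45.1 CPM in naive blood, 67.03, 153 and 174 in naive brain, 113, 10.01 and 26.2 in day 3 brain and 350.5, 59.7 and 32.1 in day 30 brain, and Gbp2 at 112, 18.1 and 143 CPM in naive blood, 167, 93.2 and 132 in naive brain, 126, 13.6 and 28.4 in day 3 brain and 238, 155 and 41.1 in day 30 brain. Naive brain lay wholly above blood for Irgm1 and overlapped it for Gbp2. The mean log2(CPM + 1) of the 5 GTPases was 6.37, 4.03 and 5.37 at day 3, against 6.54 to 7.67 in naive brain, 4.66 to 6.04 in blood and 8.35, 6.66 and 5.29 at day 30.

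In the remaining group Trim30a, a ubiquitin ligase of the interferon response, was the most abundant, at 125, 108 and 73.2 CPM in naive blood, 149, 327 and 142 in naive brain, 665, 177 and 265 in day 3 brain and 244, 196 and 173 in day 30 brain. It was higher in every brain than in every blood library, and highest at day 3 in replicate 1. With unscaled CPM the order was lost, at 160, 177 and 97.1 CPM in blood against 111, 204 and 67.8 CPM in naive brain. Its difference from blood was 1.65 ± 0.71 (SE) at day 3 (limma adjusted p = 0.438) and did not pass. Stat2, Parp9, Parp14, Rtp4 and Ifi44 did not pass in any comparison either. Stat2, a part of the ISRE-binding complex, was at 41.6, 71.3 and 42.9 CPM in naive blood, 193, 75.05 and 122 in naive brain, 132, 42.3 and 105 in day 3 brain and 50.5, 138 and 32.5 in day 30 brain, above blood in all of naive brain and, unlike most members, low in day 30 replicate 1. Ifi44 was at 8.11, 2.19 and 7.04 CPM in naive blood, 5.04, 0.108 and 0.0993 in naive brain, 19.7, 12.3 and 16.1 in day 3 brain and 0.906, 13.3 and 4.97 in day 30 brain, with all day 3 libraries above all naive brain and all blood libraries, a difference from naive brain of 3.10 ± 1.14 (SE) that did not pass (limma adjusted p = 0.232). Rtp4, a receptor-transport protein that curbs virus replication, was at 259, 7.28 and 24.6 CPM at day 3 and 287, 55.6 and 98.00 CPM at day 30, against 74.4, 56.9 and 85.01 CPM in naive brain.

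Compared per kilobase of exon, so that genes of different length can be ranked, Bst2 was the most abundant member with a mean of 245 CPM per kb over the 12 libraries. It was followed by Ifi47 at 141, Ifi35 at 86.7 and Ifit3 at 60.8 CPM per kb. Ifi44 was the lowest at 1.22 and Oas2 next at 3.04 CPM per kb.

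Because background cut across the stroke groups, the 5 low background libraries were also set side by side, 1 library of each stroke group against 3 of naive brain, which allows no test. Day 3 replicate 1 was above the naive brain mean for 28 of 36 members (77.8%, against 43.8% of tested genes), and day 30 replicate 1 for 29 (80.6%, against 57.9%). The mean difference over the members was 1.2 and 1.32 on the log2(CPM + 1) scale. Day 3 replicate 1 lay above all 3 naive brain libraries for 15 members (41.7%, against 18.7% of tested genes) and below all for 4 (11.1%, against 18.5%). For day 30 replicate 1 it was 23 above (63.9%, against 24.1%) and 3 below (8.33%, against 12.2%). Cell markers differed between these libraries too. Dendritic cell markers took 2.39% of reads in day 3 replicate 1 and 0.0603% in day 30 replicate 1, against 0.329 to 0.503% in naive brain, and monocyte and macrophage markers 1.33 and 0.509%, against 0.489 to 0.646%. T cell markers took 0.238 and 1.26%, against 0.630 to 0.850%, and the part of these cells in the members' levels was not tested.

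Both libraries were above all naive brain libraries for 12 members (33.3%, against 8.65% of tested genes). These were Dhx58, Zbp1, Oas2, Oas3, Oasl2, Eif2ak2, Isg20, Ifit1, Ifit2, Rsad2, Usp18 and Rtp4. By role, 7 of the 10 RNA effectors were above all naive brain libraries in day 3 replicate 1 and 9 of 10 in day 30 replicate 1. Of the GTPases it was 0 of 5 and 5 of 5. Of the sensors it was 3 and 2 of 4, of the virus particle and nucleotide effectors 1 and 2 of 6, of the ISG15 genes 1 and 2 of 3, and of the others 3 and 3 of 8. Bst2, Stat2 and Parp14 were the 3 that lay below all naive brain libraries in day 30 replicate 1. In day 3 replicate 1 these were Ddx58, Samhd1, Igtp and Ifi47.

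**Figure D5:**
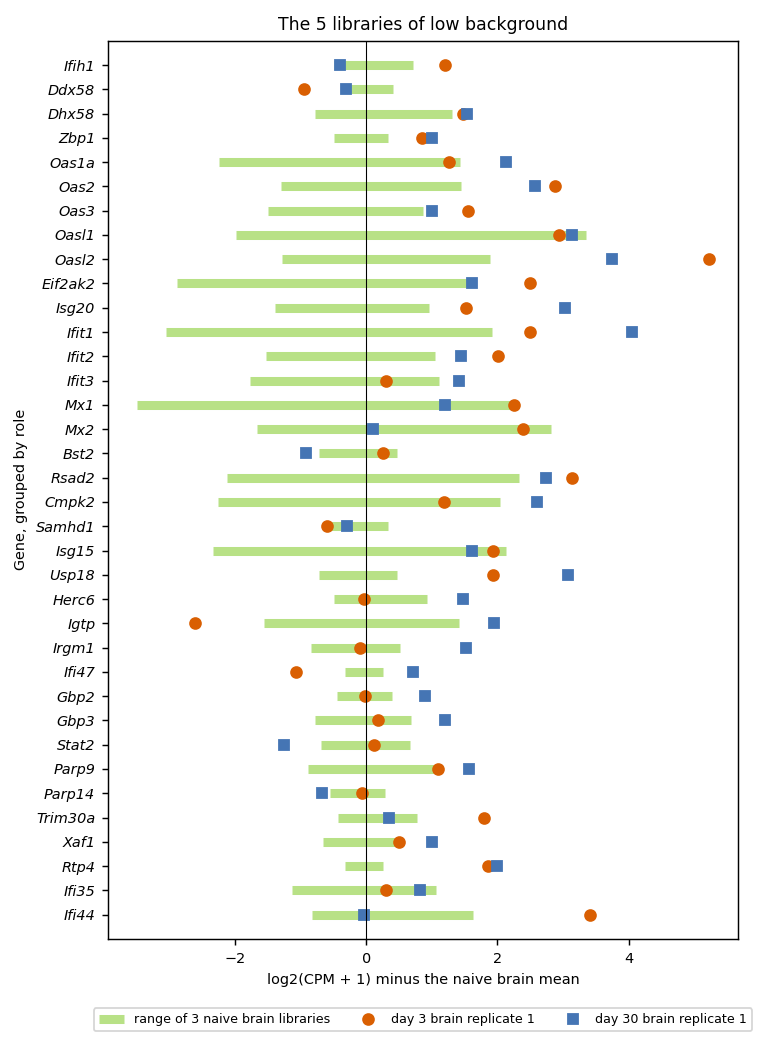
log2(CPM + 1) minus the naive brain mean for the 36 members in the 5 low background libraries, with genes grouped by role on the vertical axis. The GTPases lie to the right in day 30 replicate 1. In day 3 replicate 1, Igtp and Ifi47 lie to the left, at -2.61 and -1.06. Irgm1, Gbp2 and Gbp3 lie near 0 there, at -0.10, -0.02 and 0.18. Most RNA effectors lie to the right in both.

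In the high background stroke libraries, replicates 2 and 3 at each time, the comparison of day 30 with day 3 gave a mean member difference of 0.66, with 27 of 36 above 0 (75%, against 39.0% of tested genes). For 14 members both day 30 libraries lay above both day 3 libraries (38.9%, against 16.6% of tested genes), and 3 showed the reverse (8.33%, against 28.6%). The single low background library of each time differed by 0.13 on average, with 21 of 36 above 0 (58.3%, against 59.3%). The T cell markers took 0.0740 and 0.164% of reads in the high background day 3 libraries and 0.649 and 0.486% in those of day 30, a difference in the same direction as the members'. Other lists moved the opposite way, with dendritic cell markers at 0.557 and 0.580% at day 3 and 0.144 and 0.154% at day 30. Plasmacytoid dendritic cell markers were at 0.416 and 0.825% against 0.0922 and 0.0798%, and monocyte and macrophage markers at 0.508 and 1.02% against 0.338 and 0.554%. The part of any of these cells in the members' difference was not tested.

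Upstream of the members, reads from type I interferon genes were scarce. Ifnb1 had 0 to 4 reads in any library, so its differences were not detectable at this depth. Ifng, the gene for interferon gamma, was by contrast at 9.19, 4.39 and 1.06 CPM in naive blood, 503, 363 and 468 in naive brain, 139.8, 3.18 and 26.8 in day 3 brain and 794, 38.6 and 114 in day 30 brain. It was higher in naive brain than in blood by 6.51 ± 0.94 (SE) (limma adjusted p = 7.76e-07) and at day 30 by 4.99 ± 0.94 (SE) (limma adjusted p = 0.00105). The level at day 3 was below that of naive brain, with a difference of -4.12 ± 0.94 (SE) (limma adjusted p = 0.0155). In the same comparison 10 of the 12 T cell markers were called lower (background 0.564% of tested genes), with a median of -3.06. The part of T cell content in the Ifng difference was not tested. Of the low background libraries, day 3 replicate 1 had 139.8 CPM of Ifng, below the naive brain range, and day 30 replicate 1 had 794 CPM, above it. The mean level of the 5 GTPases showed the same order, as did Igtp and Ifi47 singly. For Irgm1, Gbp2 and Gbp3, day 3 replicate 1 lay within the naive brain range. T cell markers held the same order too, at 0.238 and 1.26% of reads, against 0.630 to 0.850% in naive brain. Whether any of these are linked was not tested.

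Of the 6 receptor genes, 2 were called higher in naive brain than in blood and none lower (background 6.61% of tested genes called higher). For Ifng, this list and those below, library background cannot be told apart from tissue in this comparison. A background term was applied to 59 single-gene results of members and pathway genes. These were the called results, and the member results between brain groups with an unadjusted p under 0.05, none of which was called. Of the 59, 36 lost their call, 22 kept their side of the threshold and 1 reversed. The 22 include uncalled results, which had no call to lose, so they are not a count of calls that held. Microglial markers took 0.998 to 2.02% of reads in naive brain and 0.0184 to 0.0353% in blood, and their part in these calls was not tested. Ifnar2, the high-affinity chain, was at 4.87, 44.98 and 87.6 CPM in naive blood, 165, 312 and 565 in naive brain, 549.7, 115 and 336 in day 3 brain and 312, 95.04 and 235 in day 30 brain. It rose in naive brain by 3.42 ± 0.79 (SE) (limma adjusted p = 0.00256) and at day 3 by 3.27 ± 0.79 (SE) (limma adjusted p = 0.0138) relative to blood. The second receptor gene was Il10rb, shared with the type III interferon and interleukin-10 receptors, at 3.99 ± 0.93 (SE) (limma adjusted p = 0.00253). Ifnar1 did not pass, with 1.85 ± 0.73 (SE) between naive brain and blood (limma adjusted p = 0.101).

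Of the 8 kinases and transcription factors of the pathway, 3 were called higher in naive brain than in blood and none lower (background 6.61%). Irf7, which amplifies interferon production, was at 20.01, 34.6 and 4.93 CPM in blood and 44.6, 458 and 230.3 CPM in naive brain, a difference of 3.36 ± 0.94 (SE) (limma adjusted p = 0.016). The others were Irf1, a factor that interferon gamma induces strongly, at 3.99 ± 0.84 (SE) (limma adjusted p = 8.89e-04), and Irf3, which starts Ifnb1 transcription, at 2.51 ± 0.81 (SE) (limma adjusted p = 0.0423). Irf9 (1.45 ± 0.78 SE, limma adjusted p = 0.227) did not pass in this comparison.

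Of the 6 negative regulators, 3 were called higher in naive brain than in blood and none lower (background 6.61% called higher), while Ptpn2, Pias1 and Irf2 did not pass. Socs1 and Socs3, which inhibit the receptor kinases, differed by 5.93 ± 1.01 (SE) and 5.48 ± 0.83 (SE), and the phosphatase gene Ptpn6 by 3.42 ± 0.73 (SE) (limma adjusted p = 2.97e-05, 2.58e-06 and 9.46e-04). Socs3 was also called higher than blood at day 3 and day 30, and Socs1 at day 30. Of 11 genes that lead to interferon production, 3 were called higher and none lower against the same background. They were Tmem173, which encodes STING, at 4.67 ± 0.97 (SE), Myd88 at 3.35 ± 0.86 (SE) and Tlr7, a sensor of single-stranded RNA, at 3.36 ± 1.04 (SE) (limma adjusted p = 7.43e-04, 0.0077 and 0.0323).

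Of 52 further interferon-stimulated genes outside the 36, 9 were called higher in naive brain than in blood and none lower (background 6.61% called higher). The smallest adjusted p-values belonged to Slfn2, which keeps T cells quiescent, at 4.24 ± 0.84 (SE), and Ly6e, a membrane protein that limits coronavirus entry, at 3.34 ± 0.67 (SE) (limma adjusted p = 3.70e-04 and 4.33e-04). Lgals9, the antigen-processing genes Psmb8, Psmb9 and Tap1, Phf11b and Lgals3bp followed, with differences of 2.83 to 3.53. The same list held 1 gene called higher than blood at day 3 (background 1.1%) and 2 at day 30 (background 0.676%). Cxcl10, a chemokine that attracts T cells, was common to both times, at 0.541, 1.65 and 3.87 CPM in naive blood, 138, 0.323 and 62.96 in naive brain, 334, 38.2 and 69.6 in day 3 brain and 94.2, 135 and 30.7 in day 30 brain. It exceeded blood by 5.17 ± 1.06 (SE) at day 3 and 4.78 ± 1.06 (SE) at day 30 (limma adjusted p = 0.00163 and 0.00901), while naive brain replicate 2 lay below all blood libraries. Between day 3 and naive brain, Sp100, a nuclear body protein, was called lower (-3.11 ± 0.77 SE, limma adjusted p = 0.0287) and Mnda, the name under which Ifi211 is held in the table, higher (4.48 ± 1.13 SE, limma adjusted p = 0.0335). None of the 52 was called between day 30 and either naive or day 3 brain.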

How the data were processed

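RNA from sorted cells was measured in 12 libraries, 4 groups of 3 taken from the sample titles. The submitters' processing notes name FastQC 0.11.2, STAR 2.5.3a, featureCounts of Subread, edgeR and the mm10 build. No source used here gives the annotation or the strand setting of the counting. In the table of 23937 genes that the authors deposited, the signal is CPM of a library size scaled by factors of 0.479 to 1.90, which equal edgeR's TMM factors recomputed from the recovered reads. Every value was a whole multiple of the value of 1 read (100% whole to within 1e-06 reads), so reads were recovered and served edgeR 4.0.16 and DESeq2 1.42.0 as alternatives. On these reads edgeR called 17, 6 and 35 genes in all for day 3 and day 30 against naive brain and day 30 against day 3, and 1178, 286 and 143 for naive brain, day 3 and day 30 against blood. No member had counts equal to those of another gene in all libraries.

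The main test was limma 3.58.1 (trend, R 4.3.3) on log2(CPM + 1) of all 12 libraries together, over the 22352 genes that reached 1 CPM in 3 libraries or more. The Benjamini-Hochberg adjustment of two-sided p-values ran over those genes in each of 6 comparisons, and an adjusted p under 0.05 is a call. A fold change on this scale understates the change of low genes. The code was tested on simulated data. Members and gene lists were chosen with earlier results of these data known. Values in every library were to be given for members called in any comparison and for the member of highest mean CPM in each role group, and other members by ranges and counts. Pathway genes were named where called, at most 8 per list, together with a fixed few, of which 1 is not reported here. Values of further members (such as Zbp1, Ifit1, Isg20, Oas1a, Mx1, Rsad2, Usp18, Igtp, Irgm1, Gbp2, Stat2, Ifi44 and Rtp4) were added after they had been seen. Same-numbered replicates deviated together in day 30 against day 3 (correlations of deviations 0.530, 0.284 and 0.165), as far as the data show, which cannot be told apart from the split by background. Elsewhere, in 5 comparisons, at least 1 pair did not exceed 0.1. Promoter windows are RefSeq's (GRCm38.p6), and gene positions GENCODE's of the same assembly as mm10.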

Additional observations from a re-analysis of the deposited data

How the results depend on the processing

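No member was called between day 30 and naive brain or between day 30 and day 3 under any alternative tried, a replicate block included. The count for day 3 against naive brain (0) became 1 with unscaled CPM, DESeq2 size factors or DESeq2, and 9 with library quality weights, a fit that stopped before it converged. For naive brain against blood (5 called) it was 2 with unscaled CPM or quantile normalization, 9 with quality weights, 0 with a background term and 6 with a replicate block. For day 3 against blood (2) it was 4 with DESeq2, 1 with quality weights and 1 with a background term. For day 30 against blood (2) it was 5 with unscaled CPM, 4 with DESeq2 and 4 with a replicate block, where replicates share only a number. With single libraries left out, the counts ran from 0 to 3 for day 3 against naive brain, 3 to 6 for naive brain against blood, 1 to 3 for day 3 against blood (1 without blood replicate 1 or day 3 replicate 1, 3 without day 3 replicate 3) and 1 to 4 for day 30 against blood (1 without blood replicate 1, 4 without blood replicate 3). The mean difference over the members in naive brain against blood (1.44) was 0.38 unscaled, 0.96 with DESeq2 size factors, 1.04 with quantile normalization and -0.49 with a background term. The term took that mean from -0.27 to 1.02 for day 3 against naive brain and from 0.22 to 1.5 for day 30. Left-out libraries moved it from -1.0 to 0.21 and from -0.34 to 0.63 there, from -0.07 to 1.21 for day 30 against day 3, from 1.21 to 1.61 for naive brain, from 0.45 to 1.65 for day 3 and from 1.10 to 2.07 for day 30 against blood. Zbp1 at day 3 against naive brain reversed to 0.52 with the background term. Of the single-gene results under these alternatives, 568 stayed on their side of the threshold, 123 lost it and 16 gained it. Those that stayed include results that were not called in the main test. The causes were not tested. Naive brain and blood have no libraries of like background, so no within-background value exists for them, and at 3 libraries a group the spread of the stroke groups limits what could be called.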
